A study of Bos taurus with 46 samples.

Results

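Among the 870 mature miRNA names counted in bovine plasma, 244 carried the prefix hsa-, the miRBase prefix for human, and all 244 are described here. The remaining 626 names carried the bovine prefix bta-. The human names were chosen by this prefix alone, and no measured value entered the choice. The 46 small RNA libraries came from plasma of Holstein-Friesian heifers. The 8 non-pregnant heifers were sham-inseminated and sampled on Days 0, 8 and 16 of a synchronised oestrous cycle (NP0, NP8 and NP16), and 11 inseminated heifers were sampled on Days 16 and 24 of pregnancy (P16 and P24). Within a status the days share the same animals. The library of animal 28 at P16, set aside in the original processing, was left out here as well, except in the filter that chose the names to test and where stated. There remained 45 libraries, from 8 animals in each NP group, 10 in P16 and 11 in P24. NP stands for the 3 days of a non-pregnant animal combined.

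A miRNA is a short RNA cut from a hairpin precursor, from which either the 5p or the 3p arm can be loaded into an Argonaute protein and direct the silencing of matching messenger RNAs. miRNAs circulate in plasma within vesicles and bound to proteins, and in cattle plasma they come from blood cells as well as from solid tissues. Mature sequences are often identical or nearly so between mammals, so that a read from a cow can match a human entry where no bovine entry of that sequence was available to the count. The level is given as RPM, the reads of a name scaled to the mapped reads of its library, and is not divided by length. The 25 most abundant human names are 17 to 24 nt long.

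Human names took a small share of the miRNA reads. They held 137066 of 128616736 miRNA reads in the 45 libraries, or 0.107%, and between 0.0558% and 0.274% of the miRNA reads of a library. Their summed level was 775 ± 227 RPM (SD, n = 45 libraries) against 687336 RPM for the bovine names. The lowest summed human level, 444 RPM, was in NP16 of animal 18, and the highest, 1438 RPM, was in NP0 of animal 16. By group the summed human level was 796 ± 324 RPM in NP0 (n = 8), 725 ± 152 in NP8 (n = 8), 636 ± 144 in NP16 (n = 8), 808 ± 204 in P16 (n = 10), and 868 ± 239 in P24, with n = 11. The group means thus differed by less than the sum of the SDs of any pair of groups.

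Depth bounded what could be seen. The libraries held 1127298 to 7445511 mapped reads and 651408 to 5440381 miRNA reads, with no pair of libraries identical. A single read was therefore worth 0.887 RPM in the shallowest library and 0.134 RPM in the deepest. The marker miRNAs of blood cells were abundant throughout, with the 5 erythrocyte miRNAs between 37355 and 390135 RPM in sum, the 4 platelet miRNAs between 17919 and 67757 RPM and the 5 leukocyte miRNAs between 16591 and 46636 RPM. The library left out had 33.1% of its mapped reads in miRNAs, against 52.5% to 80.1% in the others.

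Of the 244 human names, 130 (53.3%) had at least 1 read somewhere in the 46 libraries, against 608 of 626 bovine names (97.1%). The other 114 human names had no read at all, and a count of 0 in the 45 libraries allows a mean level of up to 0.0163 RPM, taking 3 counts as the limit for counting error alone. Detection was sparse also among the names that were seen. Over the 45 libraries 74 names had 1 to 10 reads in all, of which 31 rested on a single read, 55 had more than 10 reads in all, and 24 had more than 10 reads within a library. Only 18 human names had a read in each of the 45 libraries, against 309 bovine names. A library held reads of 25 to 53 human names, with a mean of 40.7 ± 5.65 (SD, n = 45). When each library was thinned to the 651408 miRNA reads of the shallowest, the group means lay between 26.0 names in NP0 and 27.7 in P24, with SDs of 2.74 (n = 8) and 2.23 (n = 11).

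**Figure D1:**
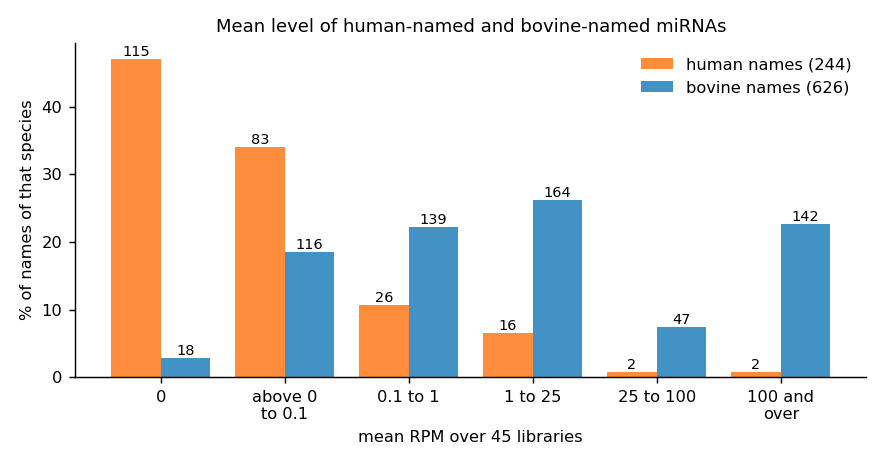
Share of human names (orange, 244) and bovine names (blue, 626) in each band of mean RPM over 45 libraries, with the number of names above each bar. The largest human band is at 0 RPM, with 115 names, whereas 142 bovine names and 2 human names reach 100 RPM.

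Most human names that were detected sat near the limit of the counts. Mean levels reached 100 RPM for 2 human names and lay between 25 and 100 RPM for 2 more, between 1 and 25 RPM for 16, between 0.1 and 1 RPM for 26, and above 0 but under 0.1 RPM for 83. Among the bovine names 142 reached 100 RPM. Reads were concentrated in a few names. hsa-miR-210-3p alone held 44.1% of the human reads, and together with hsa-miR-4532 it held 73.9%. The 4 most read names held 84.2% and the 10 most read held 92.8%.

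The lists show which kinds of human name carried reads. There were 208 names whose number is on no bovine name in the table; 100 of them were detected, and they held 93.2% of the human reads. A further 25 names share a number with a bovine name of another arm, or of none stated, and 23 of these were detected with 5.06% of the reads. For 11 names the table also held a bovine name of the same number and arm, and 7 of them were detected. Names numbered 1000 and over, which entered miRBase late, made up 184 of the 244; 91 of them were detected and they held 45.4% of the human reads. Names of the number under 1000 were detected in 39 of 60 cases. A bovine miRNA gene of the same name is listed by RefSeq (ARS-UCD2.0) for 41 human names, of which 36 were detected, against 94 of the other 203.

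Families that are well known from pregnancy in other mammals were nearly empty under their human names. The C19MC cluster, a primate-specific group of placental miRNAs, was represented by 1 name, hsa-miR-520a-3p, and it had 0 reads. The imprinted Dlk1-Dio3 cluster, which is expressed in placenta and muscle, was represented by 3 names, of which hsa-miR-323b-3p had 4 reads while hsa-miR-665 and hsa-miR-668-5p had none. The 3 let-7 names, all passenger arms of this developmental timing family, had 7 reads in total. These counts concern the human names only, since bovine names of the Dlk1-Dio3 and let-7 families were counted separately. All 10 names of the miR-378 family were detected, with 1691 reads in total. The 10 include a joint entry for hsa-miR-378b and hsa-miR-378j with the same counts as hsa-miR-378f (34 reads each). The total thus holds these reads more than once.

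Many human names fitted more than 1 place in the bovine genome. Locations were taken from columns without a header beside the deposited RPM values, which were read here as all places of a name, so that the counts of locations hold only under that reading. By it 163 names had 1 location on UMD 3.1, 65 had 2 to 4 and 16 had 5 or more. Detection was 71 of 163 for a single location, 44 of 65 for 2 to 4 and 15 of 16 for 5 or more. hsa-miR-4448 had 24 locations, hsa-miR-7977 had 21, hsa-miR-3168 had 16 and hsa-miR-1290 had 15. A read that fits many places cannot be assigned to a gene, and the level of such a name is a sum over them. For 22 of the 41 names with a RefSeq gene of the same name, a listed location lay on the chromosome of that gene, and for 19 none did. The latter include hsa-miR-210-3p, hsa-miR-210-5p, hsa-miR-574-3p and hsa-miR-652-3p. The levels of these names are therefore levels of reads matched to that sequence with 1 mismatch allowed, with the position as deposited.

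Some human names counted the same reads. hsa-miR-378h and hsa-miR-422a had identical counts in 46 of 46 libraries (80 reads each) and begin at the same base of chromosome 2, and hsa-miR-378f had the same counts as the joint entry for hsa-miR-378b and hsa-miR-378j (34 reads each). hsa-miR-1260a and hsa-miR-1260b were identical in 34 of 46 libraries and never more than 3 reads apart. The number of distinct molecules behind the 130 detected names is thus lower than 130.

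**Figure D2:**
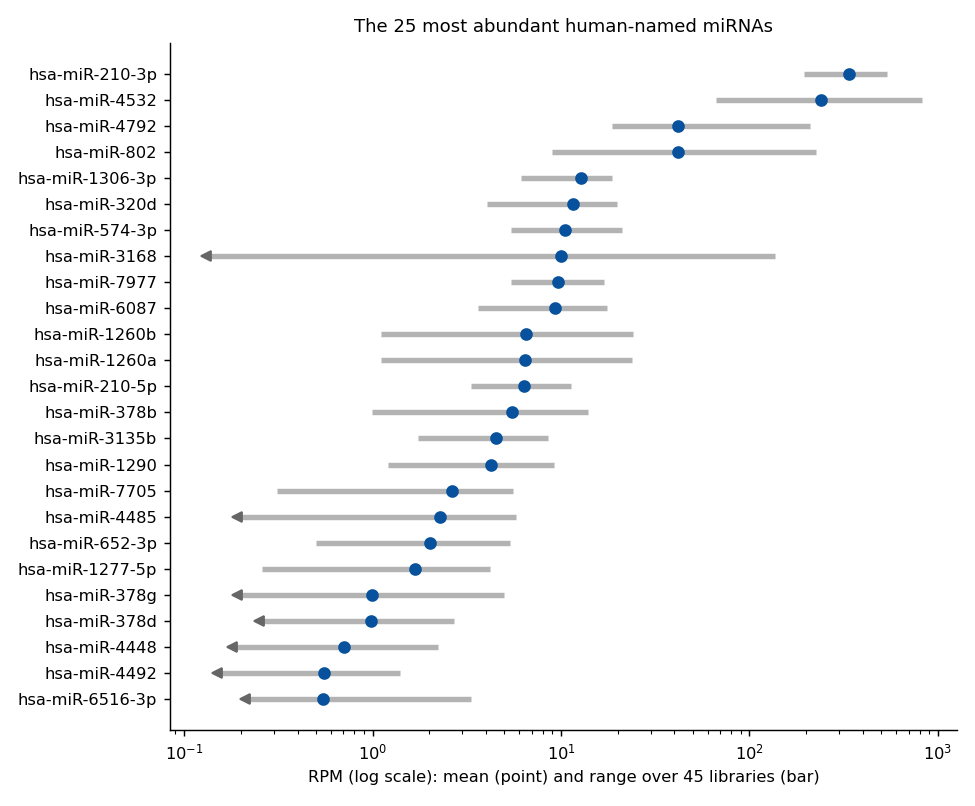
Mean RPM (points) and range over 45 libraries (bars, log scale) of the 25 human names with the highest means; an arrowhead marks a name with 0 reads in at least 1 library, whose bar starts at its lowest value above 0. hsa-miR-210-3p and hsa-miR-4532 stand at 336 and 239 RPM, and hsa-miR-3168 has the widest bar, up to 135.99 RPM.

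The most abundant human name was hsa-miR-210-3p, the main arm of a miRNA that is induced by hypoxia in many cell types. Its location was chromosome 18, 1194091 to 1194112 on the plus strand of UMD 3.1, and it was the only one listed. It had 336 ± 80.5 RPM (SD, n = 45), which placed it 97th of all 870 names. In NP0 it ranged from 215 to 438 RPM with a median of 315, in NP8 from 229 to 535 RPM with a median of 360, and in NP16 from 207 to 398 RPM with a median of 335. In P16 it ranged from 196 to 467 RPM with a median of 344, and in P24 from 198 to 448 RPM with a median of 349. All 5 groups overlapped over most of their range, and this name varied least of the 5 that passed the expression filter, with an SD of 0.240 of its mean. The opposite arm, hsa-miR-210-5p, had 6.34 ± 1.78 RPM (SD, n = 45). Its 2 listed locations are on chromosomes 18 and 20, and the former lies 11886467 bases from the 3p arm, so that the deposited positions do not place both arms in a single hairpin.

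hsa-miR-4532 was the second of the human names, at 239 ± 175 RPM (SD, n = 45), 108th of all names. It is 17 nt long and was placed at chromosome 10, 45748829 to 45748845, with further locations on chromosomes 13 and 24. In NP16 it ranged from 69.8 to 236 RPM with a median of 126.79 (n = 8), and in P16 from 82.2 to 478 RPM with a median of 266 (n = 10). In P24 the range was 116 to 819 RPM with a median of 243 (n = 11), in NP8 it was 89.9 to 345 RPM with a median of 138, and in NP0 it was 66.6 to 790 RPM with a median of 129. Levels in most pregnant heifers were thus above most NP16 and NP8 libraries, while NP0 spanned nearly the whole range. The 3 highest NP0 libraries were those of animal 16 at 789.96 RPM, animal 18 at 426.28 RPM and animal 20 at 318.69 RPM, and the other 5 lay between 66.6 and 144 RPM.

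hsa-miR-4792 and hsa-miR-802 had nearly the same mean, 41.98 ± 34.9 and 41.8 ± 32.7 RPM (SD, n = 45). hsa-miR-4792 was placed at chromosome 18, 59082174 to 59082191, with a second location elsewhere. Its medians were 33.8 RPM in NP0, 30.1 in NP8, 28.5 in NP16, 39.6 in P16 and 27.8 in P24. Its highest libraries were NP0 of animal 18 (209.72 RPM), NP16 of animal 34 (140.03 RPM) and P24 of animal 14 (111.63 RPM), and no other library exceeded 100 RPM. hsa-miR-802, which in human and mouse is known from liver and glucose metabolism, was placed on an unplaced scaffold, with this as its only location. Its medians were 29.97 RPM in NP0, 41.7 in NP8, 31.5 in NP16, 38.8 in P16 and 43.99 in P24. Animal 16 held its highest value in NP0 (225.99 RPM) and also in NP16 (82.97 RPM). In these libraries the 3 liver and gut miRNAs summed to 48236 and 63753 RPM, the latter being the highest of the 45. Nearly all of this sum was bta-miR-192, which reached 63510 RPM in NP16. There bta-miR-194 and bta-miR-122 reached no more than 205 and 50.2 RPM. The part of these miRNAs in the hsa-miR-802 level was not tested. Animal 11 was lowest for hsa-miR-802 on both days of pregnancy, at 9.13 RPM in P16 and 8.94 RPM in P24.

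hsa-miR-3168 had the highest SD relative to its mean among the 20 human names with a mean of at least 1 RPM. It is 17 nt long, and 1 of its 16 listed locations is chromosome 13, 44880249 to 44880265 on the minus strand. Its mean of 10.0 RPM had an SD of 20.7 (n = 45). It ranged from 0 to 10.2 RPM in NP0 with a median of 4.01, from 0.21 to 11.8 RPM in NP8 with a median of 2.58, and from 0.25 to 17.5 RPM in NP16 with a median of 3.26. In P16 it ranged from 0.13 to 26.0 RPM with a median of 8.33, and in P24 from 0.73 to 135.99 RPM with a median of 7.38. The highest value came from P24 of animal 24 and rested on 917 of the 2057 reads of this name. The same animal had 10.07 RPM at P16. In animal 26 the level went from 0.22 RPM at P16 to 25.1 RPM at P24, and in animal 17 from 15.01 to 2.11 RPM.

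**Figure D3:**
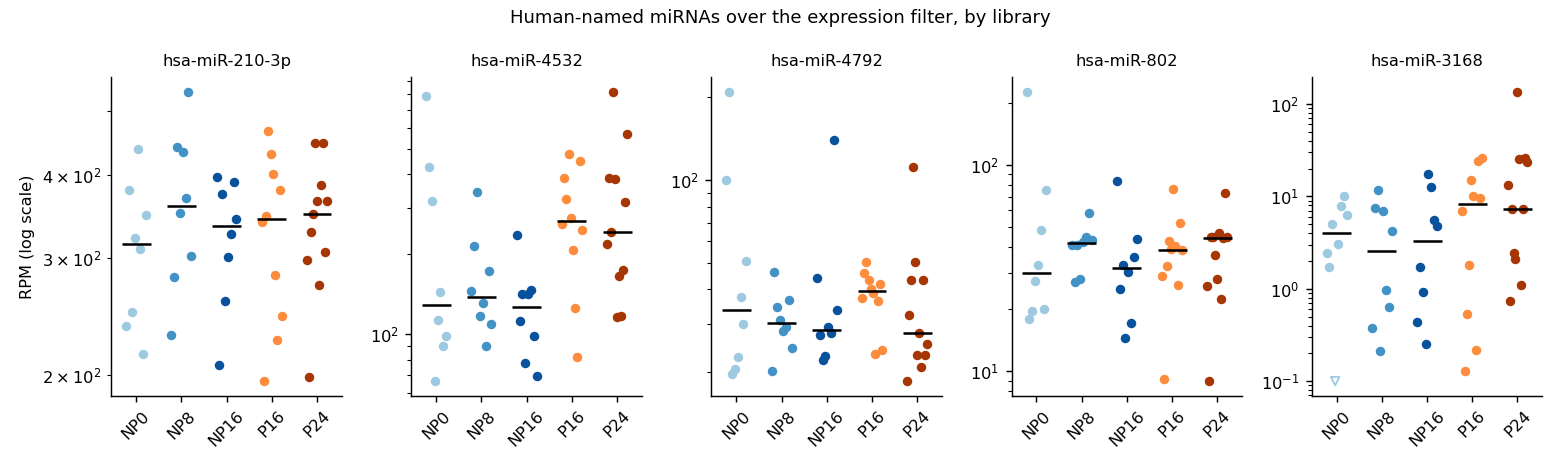
RPM (log scale) of the 5 human names that passed the expression filter, 1 point per library in NP0, NP8, NP16, P16 and P24, with the group median as a bar; the open triangle marks the NP0 library with 0 reads of hsa-miR-3168. The groups overlap in every panel, and for hsa-miR-4532 the medians of P16 (266 RPM) and P24 (243 RPM) stand above the 3 NP medians (126.79 to 138 RPM).

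The 5 names also differed in how steady they were within an animal. Across the 3 days of a non-pregnant animal the highest value was a median of 1.60 times the lowest for hsa-miR-210-3p, 1.84 times for hsa-miR-4532, 1.92 times for hsa-miR-4792 and 2.01 times for hsa-miR-802 (n = 8 animals). Between P16 and P24 of a pregnant animal the corresponding medians were 1.12, 1.42, 1.33 and 1.16 (n = 10 animals). With 3 days the highest and lowest are farther apart than with 2 by construction, so the values of both kinds of animal are given side by side only. For hsa-miR-3168 the medians were 6.39 (7 animals without a 0) and 4.49.

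Of the 16 human names with a mean of 1 to 25 RPM, the highest group mean was under 1.5 times the lowest for 8, 1.5 to 2 times for 7 and above that for 1. Over the 20 names with a mean of at least 1 RPM this ratio was 1.10 to 5.43, with a median of 1.52, and the ranges of mean ± SD of the highest and lowest groups overlapped for 20 of 20. The ratio reached 2 only for hsa-miR-4532 (2.49) and hsa-miR-3168 (5.43). hsa-miR-1306-3p was the most even at 1.10, with 13.6 ± 3.09 RPM in NP8 (n = 8) and 12.3 ± 3.31 RPM in P24 (n = 11). hsa-miR-320d, a member of the miR-320 family, had 11.6 ± 3.38 RPM (SD, n = 45), while the bovine family member bta-miR-320a had 2661 RPM. hsa-miR-574-3p had 10.5 ± 2.98 RPM, hsa-miR-7977 had 9.64 ± 2.34 and hsa-miR-6087 had 9.34 ± 3.26 (SD, n = 45). The shared reads of hsa-miR-1260a and hsa-miR-1260b came to 6.45 and 6.48 RPM, against 0.834 RPM for bta-miR-1260b. hsa-miR-378b had 5.49 RPM, above bta-miR-378b at 1.14 RPM and far under bta-miR-378 at 1279 RPM. hsa-miR-4485, with its only location on the mitochondrial genome, had 2.29 ± 1.36 RPM and was seen in 44 of 45 libraries. hsa-miR-3135b, hsa-miR-1290, hsa-miR-7705 and hsa-miR-652-3p had 4.55, 4.24, 2.63 and 2.01 RPM. hsa-miR-378g, hsa-miR-378d, hsa-miR-4448, hsa-miR-4492 and hsa-miR-6516-3p, the last of the 25, lay between 0.547 and 0.988 RPM and had no read in at least 3 libraries each.

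Some human names filled in the second arm of a hairpin whose first arm had a bovine name. Within 120 bases and on the same strand of a bovine name lay 10 human names, all detected in the 46 libraries, with 2949 reads in the 45. hsa-miR-1306-3p, at chromosome 17, 76443989 to 76444006, starts 40 bases after bta-miR-1306; the RefSeq gene MIR1306 lies inside DGCR8, the gene for the partner of Drosha in miRNA processing. Its level was 12.7 RPM against 31.0 RPM for bta-miR-1306, which was the higher in 45 of 45 libraries, and the human name held 29.1% of the reads of the pair. The order was the opposite for hsa-miR-1277-5p, with 1.68 RPM against 0.282 RPM for bta-miR-1277 and the human name higher in 44 of 45 libraries. This name has 7 locations in the genome, so that its reads need not all come from the hairpin. For hsa-miR-6516-3p and bta-miR-6516 the levels were 0.547 and 0.423 RPM, and the human name was higher in 18 of 45 libraries.

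In the other pairs the human arm was rare. hsa-miR-218-2-3p had 0.290 RPM against 10.5 RPM for bta-miR-218, whose RefSeq gene MIR218-2 lies inside SLIT3. hsa-miR-27a-3p overlaps bta-miR-27a-3p by 20 nt, and it had 59 reads where the bovine name had 963259. The arms hsa-let-7g-3p, hsa-let-7f-1-3p, hsa-let-7i-3p, hsa-miR-18a-3p and hsa-miR-30a-3p had 0 to 5 reads each in the 45 libraries, against 9020 to 778238 reads for the bovine names beside them.

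**Figure D4:**
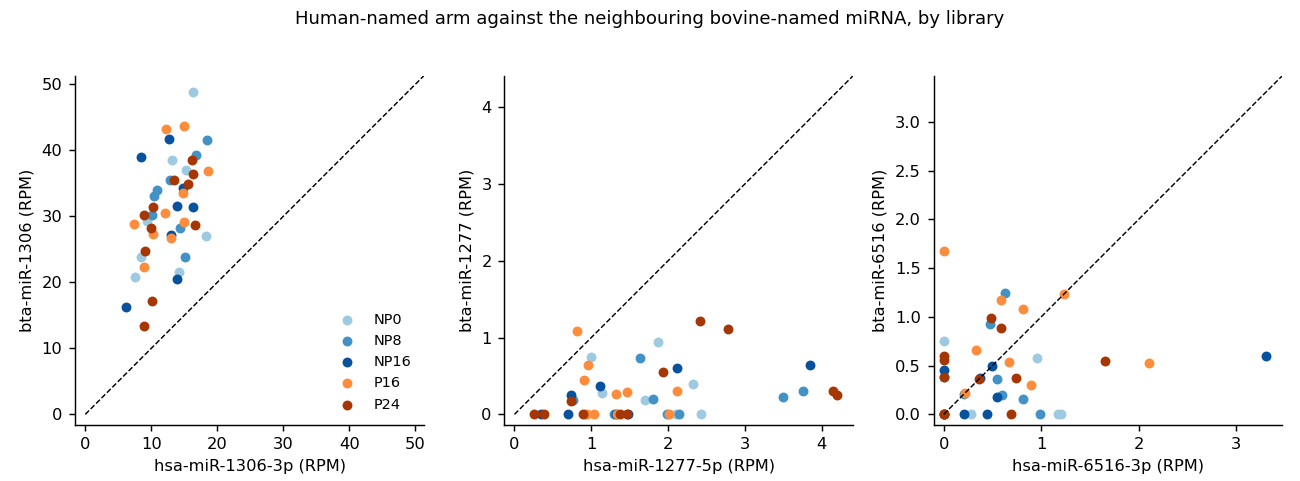
RPM of a human-named arm (horizontal) against the bovine-named miRNA beside it (vertical), 1 point per library coloured by group, with equal levels on the dashed line. All 45 libraries lie above the line for hsa-miR-1306-3p and 44 lie below it for hsa-miR-1277-5p, while for hsa-miR-6516-3p they lie on both sides.

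Differences between groups were tested for all names that passed the expression filter of 25 RPM, reached in 25% or more of the libraries in any group. For this filter the P16 library of animal 28 was counted too. The filter kept 214 of 870 names, among them 209 bovine and 5 human, so that 239 human names were not tested at this filter. hsa-miR-210-3p, hsa-miR-4532, hsa-miR-4792 and hsa-miR-802 reached it in each of the 5 groups. hsa-miR-3168 reached it through P24 alone, with 3 of 11 libraries at 25 RPM or more. In P16 it was 1 of 10, with animal 28 left out, and on each NP day 0 of 8. A higher level in P24 was thus built into the choice of this name. The test was edgeR's quasi-likelihood test with Benjamini-Hochberg adjustment over the 214 names and a limit of 0.1. The animals are the replicates. In NP16 vs P16, the comparison of the same day with and without pregnancy, 0 of the 5 human names passed, and 0 of 214 names did (0%). Unadjusted p under 0.05 were found for 1 of the 5, hsa-miR-4532, and for 15 of the 214 names (7.01%). DESeq2 called 1 human name here, the only call among the 214 names (0.467%), and 0 human names in each of the other comparisons. Over all names it called 0.935% in P16 vs NP, 0.467% in NP8 vs NP0, 1.4% in NP16 vs NP0 and 0% in the other 3. limma called 0 human names throughout, and over all names 0.935% in P16 vs NP and 0% elsewhere.

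hsa-miR-4532 was higher in P16 than in NP16 without passing the adjusted limit of edgeR. The means were 283 ± 130 RPM (SD, n = 10) and 128 ± 52.7 RPM (SD, n = 8), a ratio of 2.21, and 7 of 10 P16 values were above the highest NP16 value. The log2 fold change was 1.002 ± 0.27 (SE), with an unadjusted p of 0.00143, the smallest of the 214 names, and an adjusted p of 0.305 in edgeR. DESeq2 gave an adjusted p of 0.0484 and limma gave 0.390, and the exact permutation test over the animals gave p = 0.00740 (two-sided), or 0.528 after adjustment over the 214 names. Without NP16 of animal 16 the adjusted p in edgeR was 0.0727, and without P16 of animal 29 it was 0.0612. Thus 1 human name passed in these 2 cases, again as the only call among the 214 names (0.467% in both). The 2 libraries held the highest NP16 value (236 RPM) and the lowest P16 value (82.2 RPM). Over the 18 fits that left out 1 animal the adjusted p in edgeR was 0.0612 to 0.510, and only these 2 passed. The erythrocyte miRNAs, all 5 of 5 in the table, summed to 101550 to 390135 RPM in NP16 and to 86511 to 294656 RPM in P16. The ranges overlapped, but the mean of each of the 5 was lower in P16. The most abundant, bta-miR-486, had 201697 ± 85807 RPM in NP16 (SD, n = 8) and 137630 ± 67261 RPM in P16 (SD, n = 10). The part of these miRNAs in the result was not tested.

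None of the other 4 human names had an unadjusted p under 0.05 between NP16 and P16. hsa-miR-210-3p had 325 ± 67.1 RPM in NP16 (n = 8) and 332 ± 91.5 RPM in P16 (n = 10). Its log2 fold change was -0.08 ± 0.13 (SE). hsa-miR-802 had 35.2 ± 21.5 and 38.6 ± 17.7 RPM and a log2 fold change of 0.04 ± 0.31. hsa-miR-4792 had 43.4 ± 39.7 and 38.2 ± 8.67 RPM and a log2 fold change of -0.20 ± 0.27, which became 0.23 without NP16 of animal 34. For hsa-miR-3168 the medians were 3.26 and 8.33 RPM and the log2 fold change was 0.77 ± 0.77, an error as large as the difference. The adjusted p of these 4 names in edgeR was 0.847 or higher, and the median log2 fold change of all 214 names was 0.02.

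Against NP, the mean of the 3 days of the cycle, 0 of 5 human names passed at P16, where 2 of 214 names did (0.935%), and 0 of 5 at P24, where 0 of 214 did (0%). At P16 no human name had an unadjusted p under 0.05, against 15 of 214 names (7.01%), and at P24 only hsa-miR-3168 had, against 7 of 214 (3.27%), a count that includes the name chosen through P24. Both comparisons share the same 8 NP animals. hsa-miR-4532 had 183 ± 108 RPM in NP (n = 8), and its log2 fold change was 0.62 ± 0.34 (SE) for P16 and 0.80 ± 0.40 for P24, with unadjusted p of 0.0824 and 0.0599 and adjusted p of 0.820 and 0.871 in edgeR. Of the P16 values 2 of 10, and of the P24 values 2 of 11, were above the highest NP animal, which was animal 16 at 390 RPM. This is a mean of 3 libraries, of which NP0 had 789.96 RPM, while each P16 and P24 value is 1 library. For P16 the ratio of means was 1.55 against NP and 2.21 against NP16, while the ratio of medians was 2.08 and 2.10, and 8 of 10 P16 values were above the median of either. Without animal 16 the log2 fold change against NP was 0.90 for P16 and 1.07 for P24, with unadjusted p of 0.0104 and 0.0164 and adjusted p of 0.555 and 0.986 in edgeR. Leaving out 1 animal brought the unadjusted p of hsa-miR-4532 under 0.05 in 3 of 18 fits for P16 and in 7 of 19 for P24.

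hsa-miR-3168 had the largest fold change of the 5 human names, in P24 vs NP, where the expression filter had selected it for high P24 values. Its means were 22.2 ± 38.98 RPM in P24 (n = 11) and 4.71 ± 3.003 RPM in NP (n = 8). The log2 fold change, 2.17 ± 0.78 (SE), had an unadjusted p of 0.0112 and an adjusted p of 0.871 in edgeR. The medians were closer, at 7.38 and 5.28 RPM, and 5 of 11 P24 values exceeded the highest NP animal, at 9.19 RPM. An NP value is the mean of 3 libraries and a P24 value is 1 library. Single non-pregnant libraries reached higher, up to 17.5 RPM in NP16. Without P24 of animal 24 the log2 fold change was 1.22 and the unadjusted p 0.0740 in edgeR, and with 2 of 10 P24 libraries at 25 RPM the name would not have reached the filter. At a filter of 1 RPM, which it reached in each of the 5 groups, the log2 fold change was 2.18 ± 0.76 (SE), with an unadjusted p of 0.00857 and an adjusted p of 0.850 in edgeR. The exact permutation test on log2(RPM + 1) gave p = 0.179 (two-sided). The fold change for P16 vs NP was 1.16 ± 0.71 on the log2 scale, with an adjusted p of 0.820 in edgeR.

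For hsa-miR-210-3p the log2 fold changes against NP were 0.01 ± 0.13 at P16 and 0.03 ± 0.13 at P24 (SE). These are the smallest errors among the human names. hsa-miR-4792 had -0.14 ± 0.25 and -0.16 ± 0.35, and hsa-miR-802 had -0.19 ± 0.32 and -0.21 ± 0.34. Both names turned to the other sign when 1 non-pregnant heifer was left out: without animal 18 hsa-miR-4792 had 0.12 in both comparisons, and without animal 16 hsa-miR-802 had 0.22 at P16 and 0.18 at P24. For hsa-miR-802 the left-out P16 library of animal 28, at 121.87 RPM, was above every P16 value used (9.13 to 76.5 RPM).

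**Figure D5:**
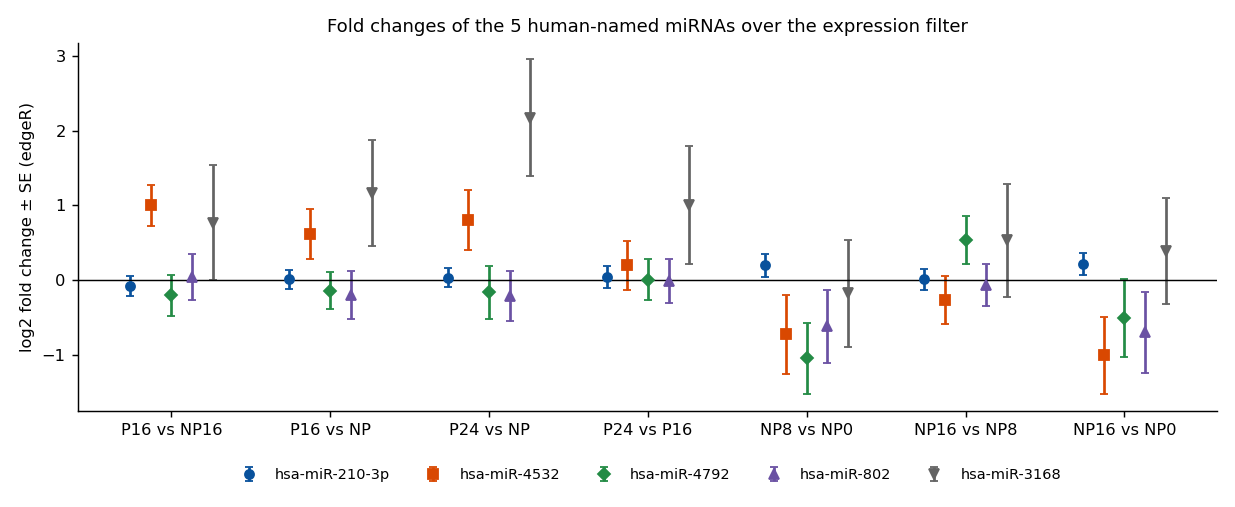
Log2 fold change with its SE from edgeR for the 5 human names over the expression filter in the 7 comparisons, the first-named group against the second. hsa-miR-210-3p stays within 0.22 of 0 throughout, hsa-miR-4532 is at 1.002 in P16 vs NP16, and hsa-miR-3168, which reached the filter through P24 alone, has the widest error bars, with 2.17 ± 0.78 in P24 vs NP.

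Between the days of pregnancy in the same heifers, P24 vs P16, 0 of 5 human names passed and 0 of 214 names did (0%), and none of the 5 had an unadjusted p under 0.05, against 3 of 214 (1.4%). The edgeR fit here did not use the pairing of days by animal, and animal 28 entered it with P24 alone. hsa-miR-4532 was higher at P24 in 5 of 10 animals and lower in 5, and its log2 fold change was 0.20 ± 0.33 (SE). hsa-miR-210-3p was higher in 4 of 10, hsa-miR-4792 in 5 of 10, hsa-miR-802 in 6 of 10 and hsa-miR-3168 in 7 of 10. For hsa-miR-3168 the log2 fold change was 1.004 ± 0.79, and it was 0.028 without animal 24. The direction of this difference was likewise favoured by the filter, which the name reached through P24 and not through P16.

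Across the cycle 0 of 5 human names passed between Days 0 and 8, 8 and 16, and 0 and 16, as did 0 of 214 names each time (0%). In NP8 vs NP0 only hsa-miR-4792 had an unadjusted p under 0.05 in edgeR, against 19 of 214 names (8.88%). The edgeR fits across the cycle did not use the pairing of days by animal. The exact permutation test over the paired animals gave p = 0.313 (two-sided) for hsa-miR-4792. Its means were 31.3 ± 8.02 RPM in NP8 and 61.3 ± 65.5 RPM in NP0 (n = 8 each), its log2 fold change was -1.04 ± 0.48 (SE), and its adjusted p was 0.495 in edgeR. It was nonetheless higher at NP8 in 4 of 8 animals and lower in 4, and without animal 18 the log2 fold change was -0.56. Its unadjusted p stayed under 0.05 in 4 of the 8 fits that left out an animal. In NP16 vs NP8 and in NP16 vs NP0 none of the 5 had an unadjusted p under 0.05, against 5 (2.34%) and 12 (5.61%) of 214 names. hsa-miR-4532 had a log2 fold change of -0.9996 ± 0.51 in NP16 vs NP0, lower in 4 of 8 animals and higher in 4. Leaving out 1 animal brought an unadjusted p under 0.05 in NP16 vs NP0 in 2 of 8 fits for hsa-miR-4532 and in 1 of 8 for hsa-miR-4792. hsa-miR-802 had -0.62 ± 0.49 in NP8 vs NP0, and it had 0.16 without animal 16 and 0.0044 with the animal as a block.

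With the filter lowered to 1 RPM, 428 names were tested, 26 of them human, and again 0 human names passed in each of the 7 comparisons in edgeR. Unadjusted p under 0.05 were added for hsa-miR-3135b in P16 vs NP16, at 5.17 ± 1.85 RPM in P16 (n = 10) and 3.39 ± 1.29 RPM in NP16 (n = 8), and for hsa-miR-7705 in P24 vs NP. Their log2 fold changes were 0.49 ± 0.23 and 0.55 ± 0.25 (SE). Their adjusted p in edgeR were 0.757 and 0.907. Over all 428 names 0.701% passed in P16 vs NP, 0.234% in NP16 vs NP0 and 0% in the other 5 comparisons. Unadjusted p under 0.05 were found for 2 of 26 human names in P16 vs NP16 and 6.07% of all names, and for 2 of 26 in P24 vs NP and 4.21% of all names, counting hsa-miR-4532 and hsa-miR-3168. In NP8 vs NP0 it was 1 of 26 human names, hsa-miR-4792, and 8.88% of all names. In P16 vs NP, P24 vs P16, NP16 vs NP8 and NP16 vs NP0 it was 0 of 26 human names, while 4.44%, 3.27%, 3.74% and 6.54% of all names had such a p.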

How the data were processed

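Small RNA of bovine plasma was counted in 46 libraries, grouped by label into NP0, NP8, NP16, P16 and P24. The authors obtained the deposited counts, one value for each mature name and library, with sRNAtoolbox by mapping single-end reads to UMD 3.1 and to miRBase, with bovine and then human entries and 1 mismatch allowed. For the deposited RPM values the authors divided each count by the mapped reads of its library. Locations are those deposited; genes were matched by name to RefSeq (ARS-UCD2.0).

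A name was tested where 25% or more of the libraries in any group, P16 of animal 28 included, reached 25 RPM. Counts were tested with edgeR 4.0.16 (R 4.3.3; TMM, glmQLFit, glmQLFTest) without a block; limma 3.58.1 and exact permutation tests on log2(RPM + 1), and DESeq2 1.42.0, were alternatives, next to other scalings, pseudocounts, filters and limits, leaving out each animal, and the replicate block. For NP, counts of the 3 days were summed and RPM averaged per animal. Scripts were tested on simulated data. Python 3.11.15, numpy 2.4.6, pandas 2.3.3, scipy 1.17.1 and matplotlib 3.10.9 were used.

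Replicate numbers are animal numbers, so days of a status are paired by animal. Deviations from the group means correlated above 0.1 within the same animal in 9 of 10 animals for P24 and P16, 7 of 8 for NP8 and NP0, and 8 of 8 for both comparisons with NP16. An animal correlated best with its own number in 7 of 10 for P24 and P16 and 7 of 8 for NP16 and NP8. This held in 6 of 8 for NP16 and NP0 and in only 2 of 8 for NP8 and NP0, where the median correlation was 0.229. Named were the human names over the filter, the 25 with the highest mean RPM, those with an unadjusted p under 0.05, the bovine names of the same number and, after their values were seen, names in pairs or lists of 5 or fewer. Members and lists were chosen with earlier results of these data known.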

Additional observations from a re-analysis of the deposited data

Results flagged for a closer look

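For the 25 most abundant human names and the groups of 8 to 10 animals, 12 values stood apart from the rest of their group by Dixon's test. For normal and independent values chance alone gives about 1 in 20 groups, or 5 of the 100 examined. The test was run on RPM without a log scale, and all 12 values were high. The 12 can therefore not be weighed against the 5. Animal 16 gave 3 of them, all high: hsa-miR-802 in NP0 at 225.99 RPM and in NP16 at 82.97 RPM, and hsa-miR-4532 in NP16 at 236.17 RPM. hsa-miR-4792 stood apart in NP0 of animal 18 at 209.72 RPM and in NP16 of animal 34 at 140.03 RPM. In NP16, hsa-miR-652-3p of animal 34 had 3.7 RPM and hsa-miR-6516-3p of animal 35 had 3.31 RPM, the latter from 11 reads. hsa-miR-1260a and hsa-miR-1260b, which share most of their reads, were both highest in NP16 of animal 22 at 10.27 RPM, and hsa-miR-1260a was highest in P16 of animal 11 at 12.22 RPM. The remaining values were hsa-miR-320d in P16 of animal 17 at 19.8 RPM and hsa-miR-210-5p in NP8 of animal 20 at 8.98 RPM.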

How the results depend on the processing

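No human name passed the limit in any of the 7 comparisons under another scaling, pseudocount, filter, limma, the exact permutation test, the replicate block (0 calls in each of the 4 paired comparisons) or with P16 of animal 28 kept; DESeq2 called 1 in P16 vs NP16, and leaving out an animal gave 0 to 1 there, in each case the only call among the 214 names (0.467%). The log2 fold changes of the 5 tested names kept their sign in 318 of 364 other settings and 403 of 450 fits without an animal, besides 1 and 2 that passed the limit.

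Signs changed mainly where the value was near 0, though not only there. The edgeR values that turned included -0.62 and -0.70 for hsa-miR-802 in NP8 vs NP0 and NP16 vs NP0. They also included 0.39 for hsa-miR-3168 in NP16 vs NP0. Where no animal is named, the cause was not tested. hsa-miR-210-3p in P16 vs NP16 had 0.11 with library totals, 0.029 with mapped reads, 0.0058 with limma and the permutation test (0.0058 at pseudocount 0.1) and 0.054 with animal 28 kept. In P16 vs NP it had -0.059 with limma at both pseudocounts and the permutation test and -0.051 unfiltered; in P24 vs P16, -0.11 with animal 28 kept and -0.012 with the block; in NP16 vs NP8, -0.16 with library totals, limma at both pseudocounts and the permutation test, -0.18 with mapped reads, -0.038 unfiltered and -0.053 at 1 RPM; and in NP16 vs NP0, -0.0023 with library totals. hsa-miR-4792 in P16 vs NP16 had 0.074 with limma and the permutation test and 0.079 at pseudocount 0.1. In P24 vs P16 it had -0.0025 with DESeq2 size factors, -0.0012 with mapped reads, -0.0010 with DESeq2, -0.16 and -0.17 with limma at pseudocounts 1 and 0.1, -0.048 unfiltered, -0.027 at 1 RPM, -0.034 with animal 28 kept, -0.16 with the replicate block and -0.10 by permutation. hsa-miR-802 had 0.58 in P16 vs NP with animal 28 kept, 0.045 in P24 vs P16 by permutation, 0.23 in NP16 vs NP0 with DESeq2, and in NP8 vs NP0 0.27 with DESeq2, 0.019 with limma and the permutation test, 0.028 at pseudocount 0.1 and 0.0044 with the block. hsa-miR-4532 in P24 vs P16 had -0.015 with animal 28 kept, and hsa-miR-3168 in NP16 vs NP0 had -0.11 with limma and the permutation test and -0.10 at pseudocount 0.1.

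Leaving out each animal gave, for hsa-miR-210-3p, -0.039 to 0.064 in P16 vs NP, -0.010 to 0.090 in P24 vs NP, -0.055 to 0.078 in P24 vs P16 and -0.050 to 0.060 in NP16 vs NP8. For hsa-miR-4792 it gave -0.30 to 0.23 in P16 vs NP16, -0.23 to 0.12 in P16 vs NP, -0.50 to 0.12 in P24 vs NP, -0.34 to 0.077 in P24 vs P16 and -1.11 to 0.13 in NP16 vs NP0, the highest without animal 18. For hsa-miR-802 it gave -0.12 to 0.30 in P16 vs NP16, -0.34 to 0.22 in P16 vs NP, -0.39 to 0.18 in P24 vs NP, -0.13 to 0.16 in P24 vs P16, -0.81 to 0.16 in NP8 vs NP0 and -0.26 to 0.042 in NP16 vs NP8. hsa-miR-3168 had -0.54 to 0.23 in NP8 vs NP0 and -0.28 to 0.62 in NP16 vs NP0, and hsa-miR-4532 had -0.0028 to 0.28 in P24 vs P16. Levels scaled to miRNA reads in place of mapped reads were higher, for example 464 for hsa-miR-210-3p in NP0. Names with few reads could not be compared at this depth, and a name with many locations or shared reads has no level of its own.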

Other observations

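The P16 library of animal 28, which entered no comparison, held 4334 reads of human names, 0.202% of its miRNA reads, over 37 names. Its human names summed to 667 RPM. hsa-miR-4532 had 254.83 RPM and hsa-miR-210-3p had 224.67 RPM, between the lowest and highest of the P16 values used, while hsa-miR-802 had 121.87 RPM, hsa-miR-4792 had 15.23 RPM and hsa-miR-1306-3p had 3.85 RPM, each outside them.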
